A study of Mus musculus with 12 samples.

Results

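The genes examined here are 10 regulators of the G1 phase of the cell cycle: the D-type cyclins Ccnd2 and Ccnd3, the kinases Cdk4 and Cdk6, the CDK inhibitors Cdkn1a, Cdkn1b, Cdkn2c and Cdkn2d, and the pocket proteins Rb1 and Rbl2. They were taken by gene symbol from a table of 55487 features, and all 10 were present once. The data are bulk RNA levels in sorted natural killer (NK) cells of the mouse, innate lymphocytes that kill infected or transformed cells and secrete interferon gamma. The 3 groups held 4 samples each, named f2, m2, m3 and m4: cells left unstimulated, and cells given an antibody against the activating receptor NK1.1 for 6 h and then separated into YFP- and YFP+ fractions. All 12 samples shared the strain B6.129S4-Ifngtm3.1Lky/J, the genotype mut/mut and priming with IL-15 (HD IL-15 in the sample titles), a cytokine that drives NK cell survival and growth. The strain reports interferon gamma expression through yellow fluorescent protein (YFP), so the YFP- and YFP+ fractions were defined by the reporter rather than by a separate treatment. There was no stimulated sample from before the sort and no sample from mice without the reporter. No time is given for the unstimulated samples, so differences in culture time or handling cannot be told apart from those of the antibody. Neither the origin of same-named samples from 1 mouse nor that of the 4 samples of a group from separate animals is stated, so p-values here measure the spread between these samples.

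In G1, a D-type cyclin binds CDK4 or CDK6 and the active kinase phosphorylates the pocket proteins, which otherwise hold E2F transcription factors in check. Inhibitors of the INK4 family (Cdkn2b, Cdkn2c and Cdkn2d among them) bind CDK4 and CDK6 directly, whereas the CIP/KIP proteins p21 (Cdkn1a) and p27 (Cdkn1b) bind cyclin and CDK complexes and act mainly on CDK2. In lymphocytes, p27 and the pocket protein p130 (Rbl2) are typical of resting cells, and FOXO and KLF2 transcription factors are linked to that state.

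The libraries held 32.1 to 54.2 M (mega) reads each. Levels are given in CPM, read counts per mega reads of the library, and 3 reads corresponded to 0.0553 to 0.0933 CPM. Ifng, the gene that carries the reporter, stood at 3.66 to 4.19 CPM in unstimulated, 36.6 to 54.5 CPM in YFP- and 304 to 343 CPM in YFP+ libraries, an order that matches the sort labels. All 6 NK markers checked (Ncr1, Klrb1c, Klrk1, Eomes, Il2rb and Klre1) had at least 3 reads in every library, although Klrb1c, which encodes NK1.1 itself, was at 290 to 327, 57.6 to 86.6 and 3.7 to 8.97 CPM in the same order of groups. Markers of other cells were low: summed T cell markers reached 45.8 to 106, 39.7 to 62.6 and 22.5 to 45.9 CPM, mostly from Cd3 chains, summed basophil and mast cell markers 12.6 to 27.8, 9.42 to 24.6 and 16.5 to 27.5 CPM with Ms4a2 under 3 reads in every library, and B cell, myeloid and erythroid sums did not exceed 4.19 CPM. The summed T cell, B cell and myeloid markers moved with the groups, and their part in the results was not tested. So did the share of reads on ribosomal RNA-like features (27.4 to 35.3% without stimulation, 15.9 to 30.3% for YFP- cells and 13.7 to 29.8% for YFP+ cells). The differences of the genes examined and the counts over all genes were recomputed without those features, and the calls this changed are given below. The further gene lists, the levels per length and the distances between genes are given only with those reads included. In bulk RNA, fewer cells that express a gene and less RNA per cell cannot be told apart.

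Promoter sequences were available for 8 of the 10 genes (11 promoters, RefSeq on GRCm38.p6, 250 bases before to 50 after the start site), and 6 are shown because they belong to the genes on which the results turn: those lower in YFP+ than in YFP- cells, the inhibitor that rose, and the kinase that moved least. Capitals mark matches on either strand to 8 motifs. Searched were the FOXO letters TGTTTAC, the AP-1 letters TGACTCA, the GC box GGGCGG, the TATA box TATAAA, the E-box CACGTG and the CCAAT box, spelled as named. The E2F motif was searched as TTTCCCGC, TTTCGCGC, TTTGCCGC or TTTGGCGC, and the CHR as TTTGAA or, in its other spelling, TTCGAA. Overlaps between motifs were allowed. Each sequence runs 5′ to 3′ on the gene's own strand.
Ccnd3, upstream start, chr17:47504801-47505100, plus strand: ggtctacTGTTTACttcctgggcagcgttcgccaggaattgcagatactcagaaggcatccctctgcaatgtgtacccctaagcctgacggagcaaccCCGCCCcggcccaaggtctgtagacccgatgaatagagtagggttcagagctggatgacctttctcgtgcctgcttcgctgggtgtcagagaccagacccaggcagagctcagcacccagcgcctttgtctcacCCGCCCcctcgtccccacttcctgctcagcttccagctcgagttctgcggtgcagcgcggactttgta
Cdkn2d, chr9:21291160-21291459, minus strand: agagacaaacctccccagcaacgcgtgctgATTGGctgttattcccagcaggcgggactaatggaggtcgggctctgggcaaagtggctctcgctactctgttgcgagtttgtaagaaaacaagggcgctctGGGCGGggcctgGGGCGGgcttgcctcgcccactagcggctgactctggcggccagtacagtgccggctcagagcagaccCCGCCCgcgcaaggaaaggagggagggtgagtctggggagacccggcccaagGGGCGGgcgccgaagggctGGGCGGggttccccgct
Cdkn1b, chr6:134920151-134920450, plus strand: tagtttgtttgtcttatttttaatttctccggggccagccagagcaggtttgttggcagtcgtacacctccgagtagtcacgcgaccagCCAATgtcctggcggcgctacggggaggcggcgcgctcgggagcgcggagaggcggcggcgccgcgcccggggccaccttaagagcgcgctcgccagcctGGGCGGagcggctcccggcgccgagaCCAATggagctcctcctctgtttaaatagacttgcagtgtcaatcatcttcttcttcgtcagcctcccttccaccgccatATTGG
Rbl2, chr8:91069807-91070106, plus strand: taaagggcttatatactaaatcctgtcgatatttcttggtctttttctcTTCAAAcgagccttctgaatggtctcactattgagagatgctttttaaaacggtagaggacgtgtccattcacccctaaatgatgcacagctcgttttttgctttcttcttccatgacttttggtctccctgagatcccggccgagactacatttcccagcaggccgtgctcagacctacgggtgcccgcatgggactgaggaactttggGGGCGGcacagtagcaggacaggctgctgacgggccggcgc
Cdkn1a, downstream start, chr17:29093519-29093818, plus strand: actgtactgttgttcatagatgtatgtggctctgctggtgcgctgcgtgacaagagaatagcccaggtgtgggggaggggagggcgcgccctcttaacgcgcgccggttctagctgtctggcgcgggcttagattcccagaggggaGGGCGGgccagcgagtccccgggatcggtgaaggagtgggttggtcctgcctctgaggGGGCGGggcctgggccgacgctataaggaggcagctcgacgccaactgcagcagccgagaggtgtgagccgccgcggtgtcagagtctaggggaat
Cdk4, chr10:127063285-127063584, plus strand: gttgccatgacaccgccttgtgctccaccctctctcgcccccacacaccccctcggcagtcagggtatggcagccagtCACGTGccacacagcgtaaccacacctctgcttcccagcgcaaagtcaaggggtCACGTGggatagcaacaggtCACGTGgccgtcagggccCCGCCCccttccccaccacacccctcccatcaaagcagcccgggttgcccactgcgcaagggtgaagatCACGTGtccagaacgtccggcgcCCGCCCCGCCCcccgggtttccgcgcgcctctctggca

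The upstream Ccnd3 window held a FOXO match at -243 to -237 from the start site and 2 GC boxes. The FOXO motif was found in 3.65% of all 32851 promoters in the table, and the GC box in 35.7%. The downstream Ccnd3 window, not shown, held GC boxes and a CCAAT box but no FOXO match. Which Ccnd3 start these cells use was not tested. Cdkn2d had 5 GC boxes and 1 CCAAT box (37.4% of all promoters hold at least 1 of the latter), and Cdkn1b had 1 GC box and 3 CCAAT boxes. In the Rbl2 window the matches were a CHR at -201 to -196 (19.2% of all promoters) and a GC box, and in the downstream Cdkn1a window 2 GC boxes. Cdk4 stood out in this set by 4 E-boxes, at -172, -118, -98 and -11, where 7.15% of all promoters hold at least 1, beside 3 GC boxes of which the last 2 share a base. The Cdk6 window, not shown, had a TATA box (13.6% of all promoters) and an E-box. Of the Cdkn2c windows, also not shown, 1 held an E-box at 35 to 40 and a CCAAT box, and the other held GC boxes only. None of the 11 promoters matched the E2F or AP-1 letters, which 2.26% and 5.2% of all promoters hold. A match is a run of letters in the window and not evidence of binding.

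After stimulation, members of the D-type cyclins and of the CDK inhibitors moved in opposite directions, whereas both pocket proteins were lower in YFP+ cells and Cdk4 changed little. Ccnd2, Cdk6 and Cdkn1a rose in both stimulated fractions, while Ccnd3, Cdkn1b, Cdkn2c, Cdkn2d and Rb1 fell in both. Ccnd3, Cdkn1b, Cdkn2d and Rbl2 were lower in YFP+ than in YFP- cells, and none of the 10 was called higher in YFP+. All 10 passed the filter on low values. At an adjusted p under 0.05 in limma, 9 of 10 were called for YFP+ against unstimulated (3 higher, 6 lower), where 60.8% of the 12364 genes tested were called (27.5% higher, 33.3% lower). For YFP- against unstimulated 9 of 10 were called (3 higher, 6 lower), against 51.1% of all genes (30.2% higher, 20.9% lower). For YFP+ against YFP- 4 of 10 were called, all lower, against 21.8% of all genes (3.28% higher, 18.5% lower). Over all genes, the split for YFP+ against YFP- moved with the scaling: 405 genes were higher and 2286 lower as deposited, and 1505 and 1491 after median centring. With the background this broad, the number called says little by itself, and the sizes and directions below carry the description. The median log2 difference of the 10 genes was -1.39, -0.66 and -0.51 in these comparisons, and that of all genes tested was -0.03, 0.14 and -0.19. The 3 comparisons share groups, so their values are given side by side and not as repeats of each other.

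**Figure D1:**
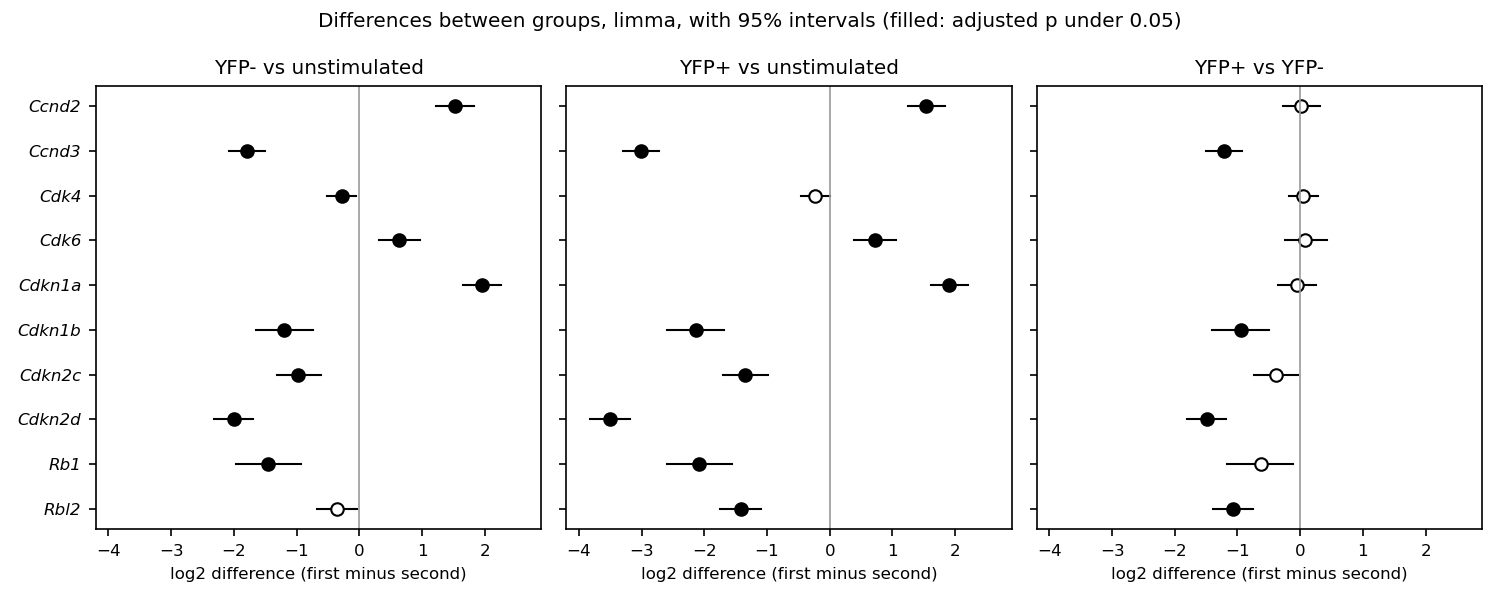
Log2 difference of each gene (x axis, first group minus second) with its 95% interval from limma in 3 comparisons of 4 against 4 samples; filled points have an adjusted p under 0.05. Ccnd2, Cdk6 and Cdkn1a lie to the right of 0 in both comparisons with unstimulated cells, and Ccnd3 and Cdkn2d lie farthest to the left in all 3 comparisons.

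Among the D-type cyclins, Ccnd2 (ENSMUSG00000000184, chromosome 6, 127125162 to 127152193, minus strand, GRCm38) stood at 337, 371, 383 and 317 CPM in the unstimulated samples f2, m2, m3 and m4. Its level was 1050, 1046, 780 and 1234 CPM in YFP- and 1173, 1044, 878 and 1023 CPM in YFP+ samples. The lowest stimulated sample lay above the highest unstimulated one, and the YFP- and YFP+ ranges overlapped. In limma, Ccnd2 was 2.92-fold higher in YFP+ (log2 difference 1.54, SE 0.14, adjusted p = 5.1e-07) and 2.89-fold higher in YFP- (1.53, SE 0.14, adjusted p = 1.6e-06) than in unstimulated cells. Between YFP+ and YFP- the log2 difference was 0.01, with a 95% interval of -0.28 to 0.31 and an adjusted p of 0.95 in limma.

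Ccnd3 (ENSMUSG00000034165, chromosome 17, 47505051 to 47599691, plus strand) went the other way. Its levels were 252, 247, 253 and 267 CPM in unstimulated, 88.3, 78.6, 67.3 and 62.9 CPM in YFP- and 30.5, 38.6, 28.5 and 30 CPM in YFP+ samples f2, m2, m3 and m4. The 3 groups did not overlap, and the unstimulated samples lay within 20 CPM of each other. Ccnd3 was 3.46-fold lower in YFP- (log2 difference -1.79, SE 0.13, adjusted p = 3e-07 in limma) and 8.04-fold lower in YFP+ (-3.01, SE 0.13, adjusted p = 1.4e-09) than in unstimulated cells. Between the fractions, Ccnd3 was 2.32-fold lower in YFP+ than in YFP- cells (-1.22, SE 0.13, adjusted p = 4.7e-05 in limma).

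Measured within each library, where the scaling between libraries drops out, the log2 ratio of Ccnd2 over Ccnd3 rose from 0.46 ± 0.16 (SD, n = 4) in unstimulated to 3.78 ± 0.35 in YFP- and 5.01 ± 0.22 in YFP+ cells. All 3 differences (3.32, 4.55 and 1.23) had p = 0.0286 in 2-sided exact permutation tests over 70 regroupings, the smallest p that 4 against 4 allows, and an adjusted p of 0.033 over 15 such tests. Levels of different genes compare only per length, here CPM per kilobase of merged exons. Merged exons join all annotated transcripts of a gene and can be longer than the transcript expressed. Shares and orders between genes are therefore approximate here and below. On that scale the summed level of Ccnd1, Ccnd2 and Ccnd3 was 66.5 ± 2.59 in unstimulated, 118 ± 20 in YFP- and 115 ± 13.1 in YFP+ cells (SD, n = 4). Ccnd2 made up 56.2%, 92% and 95.5% of that sum and Ccnd3 43.7%, 7.29% and 3.19%. Ccnd1, the third D-type cyclin, made up 0.104%, 0.7% and 1.34%.

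**Figure D2:**
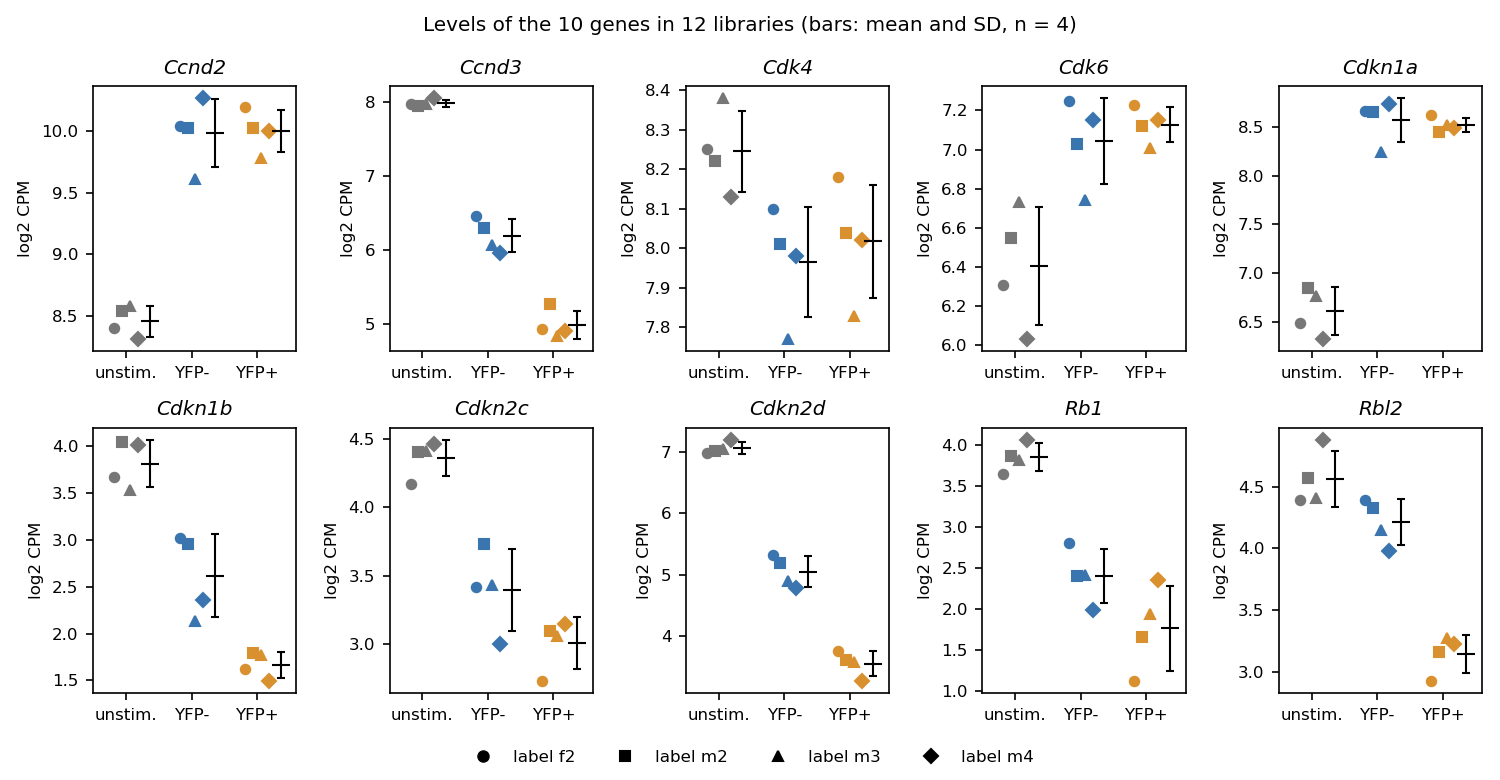
Log2 CPM (y axis, a scale of its own in each panel) of the 10 genes in the 12 libraries by group; symbols mark the sample names, and the black bars give mean and SD (n = 4). Ccnd3 and Cdkn2d separate into 3 levels without overlap, and Ccnd2 and Cdkn1a separate unstimulated from stimulated samples, with YFP- and YFP+ overlapping.

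The 2 kinases moved little by comparison. Cdk4 (ENSMUSG00000006728, chromosome 10, 127063534 to 127067920, plus strand) was at 304, 298, 333 and 280 CPM in unstimulated, 274, 257, 218 and 252 CPM in YFP- and 291, 263, 227 and 259 CPM in YFP+ samples. The YFP+ range overlapped both others. The log2 difference was -0.23 for YFP+ (SE 0.11, 95% interval -0.46 to 0.01, adjusted p = 0.087) and -0.28 for YFP- (SE 0.11, adjusted p = 0.046) against unstimulated in limma. Both calls depended on the processing: the YFP- call was lost without any 1 of the 4 sample names (adjusted p 0.064 to 0.18 in limma), without any 1 of 8 single libraries (unstimulated f2, m2 or m3, YFP- m2, m3 or m4, YFP+ m2 or m4; 0.057 to 0.13) and with no filter on low values (0.18). Cdk4 was called lower in YFP+ with quantile normalization (-0.42, adjusted p = 0.00054), without ribosomal RNA-like reads (-0.42, 0.00045) and without the YFP+ sample f2 (-0.28, 0.046). Between YFP+ and YFP- Cdk4 differed by 0.05 (adjusted p = 0.76), but with the libraries centred on their medians it was called higher in YFP+ (0.32, adjusted p = 0.024 in limma).

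Cdk6 (ENSMUSG00000040274, chromosome 5, 3341485 to 3531008, plus strand) rose in both stimulated fractions. It stood at 79.5, 93.8, 106 and 65.2 CPM in unstimulated, 153, 131, 107 and 142 CPM in YFP- and 150, 139, 129 and 142 CPM in YFP+ samples. Unstimulated m3 and YFP- m3 were nearly level, at 106 and 107 CPM, and all other stimulated samples lay well above all unstimulated ones. Cdk6 was 1.65-fold higher in YFP+ (log2 difference 0.72, SE 0.16, adjusted p = 0.0011) and 1.56-fold higher in YFP- (0.64, SE 0.16, adjusted p = 0.0037) than in unstimulated cells in limma. The YFP+ and YFP- levels differed by 0.08, with a 95% interval of -0.25 to 0.42 and an adjusted p of 0.75.

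Within libraries, the log2 ratio of Cdk6 over Cdk4 was -1.84 ± 0.22 in unstimulated, -0.92 ± 0.10 in YFP- and -0.89 ± 0.06 in YFP+ cells (SD, n = 4). Both stimulated fractions differed from unstimulated cells (0.92 and 0.95, each exact permutation p = 0.0286, adjusted p = 0.033), and from each other by 0.03 (exact permutation p = 0.629). Per length, Cdk4 remained the main kinase transcript, at 93.9%, 89% and 88.9% of the summed level of both genes in unstimulated, YFP- and YFP+ cells. That sum was 99.7 ± 7.83, 86.6 ± 8.49 and 90.0 ± 8.58 CPM per kilobase, with overlapping ranges (91.0 to 110, 74.9 to 95.2 and 79.2 to 100).

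Of the 4 CDK inhibitors, Cdkn1a was the 1 that rose. Cdkn1a (ENSMUSG00000023067, chromosome 17, 29090976 to 29100727, plus strand), which encodes p21, was at 90.1, 116, 109 and 80.1 CPM in unstimulated, 403, 401, 302 and 429 CPM in YFP- and 394, 350, 368 and 361 CPM in YFP+ samples. Every stimulated sample exceeded every unstimulated one, and YFP- and YFP+ overlapped. The gene was 3.77-fold higher in YFP+ (log2 difference 1.91, SE 0.14, adjusted p = 8.1e-08) and 3.89-fold higher in YFP- (1.96, SE 0.14, adjusted p = 2.2e-07) than in unstimulated cells in limma, the largest rise among the 10. Between the fractions it differed by -0.05, with a 95% interval of -0.35 to 0.25 and an adjusted p of 0.84, and the sign of that small difference changed with the scaling (0.21 after median centring, adjusted p = 0.22).

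Cdkn1b (ENSMUSG00000003031, chromosome 6, 134920401 to 134925513, plus strand), which encodes p27, was a low transcript. It was lower in YFP- than in unstimulated cells and lower in YFP+ than in YFP- cells. It was at 12.7, 16.4, 11.5 and 16.1 CPM in unstimulated, 8.10, 7.78, 4.35 and 5.12 CPM in YFP- and 3.07, 3.45, 3.40 and 2.80 CPM in YFP+ samples, the last from 90 to 187 reads per library. The 3 groups did not overlap. Cdkn1b was 2.29-fold lower in YFP- (log2 difference -1.20, SE 0.21, adjusted p = 0.0004) and 4.42-fold lower in YFP+ (-2.14, SE 0.21, adjusted p = 1.3e-06) than in unstimulated cells in limma. YFP+ was 1.93-fold below YFP- (-0.95, SE 0.21, adjusted p = 0.006), a call that just missed the threshold without the samples named f2 (-0.80, adjusted p = 0.051 in limma). The log2 ratio of Cdkn1a over Cdkn1b within libraries was 2.80 ± 0.38 in unstimulated, 5.95 ± 0.36 in YFP- and 6.85 ± 0.17 in YFP+ cells (SD, n = 4), and each of the 3 differences had an exact permutation p of 0.0286 (adjusted p = 0.033).

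Cdkn2d (ENSMUSG00000096472, chromosome 9, 21288410 to 21291407, minus strand) encodes the INK4 inhibitor p19 and fell the most of the 10 genes in all 3 comparisons. Its levels were 126, 130, 132 and 146 CPM in unstimulated, 40.2, 36.7, 29.9 and 27.5 CPM in YFP- and 13.7, 12.3, 11.9 and 9.61 CPM in YFP+ samples. The groups were far apart, with the lowest unstimulated sample at 126 CPM and the highest YFP+ sample at 13.7 CPM. In limma, Cdkn2d was 4.01-fold lower in YFP- (log2 difference -2.0, SE 0.15, adjusted p = 2.9e-07) and 11.3-fold lower in YFP+ (-3.50, SE 0.15, adjusted p = 1.2e-09) than in unstimulated cells, and 2.82-fold lower in YFP+ than in YFP- (-1.49, SE 0.15, adjusted p = 2.3e-05).

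Cdkn2c (ENSMUSG00000028551, chromosome 4, 109660876 to 109667189, minus strand) encodes p18 of the same family and fell less. It was at 17.9, 21.2, 21.3 and 22.0 CPM in unstimulated, 10.7, 13.3, 10.7 and 7.97 CPM in YFP- and 6.64, 8.59, 8.31 and 8.84 CPM in YFP+ samples. Unstimulated samples lay above all others, and the fractions overlapped through the low YFP- sample m4. The log2 difference was -0.97 for YFP- (SE 0.17, adjusted p = 0.0003) and -1.35 for YFP+ (SE 0.17, adjusted p = 9.4e-06) against unstimulated in limma. Between YFP+ and YFP- it was -0.38 (SE 0.17, adjusted p = 0.12), and -0.51 without YFP- m4 (adjusted p = 0.039). Within libraries the log2 ratio of Cdkn2c over Cdkn2d was -2.70 ± 0.09 in unstimulated, -1.66 ± 0.22 in YFP- and -0.55 ± 0.38 in YFP+ cells (SD, n = 4). The ratio was higher in YFP- than in unstimulated cells and higher in YFP+ than in YFP- cells (differences of 1.04 and 1.11, each exact permutation p = 0.0286, adjusted p = 0.033).

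Per length, the 4 inhibitors and Cdkn2b, an INK4 gene from the list of partners, summed to 124 ± 5.83 CPM per kilobase in unstimulated, 139 ± 17.5 in YFP- and 122 ± 4.82 in YFP+ cells (SD, n = 4), with overlapping ranges (115 to 127, 113 to 150 and 119 to 129). The makeup of that sum changed. Cdkn2d supplied 68.5% of it in unstimulated, 15.4% in YFP- and 6.17% in YFP+ cells, and Cdkn1a supplied 22.4%, 77.3% and 85%. Cdkn1b supplied 2.52%, 0.989% and 0.574%, and Cdkn2b 0.427%, 3.43% and 5.76%.

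**Figure D3:**
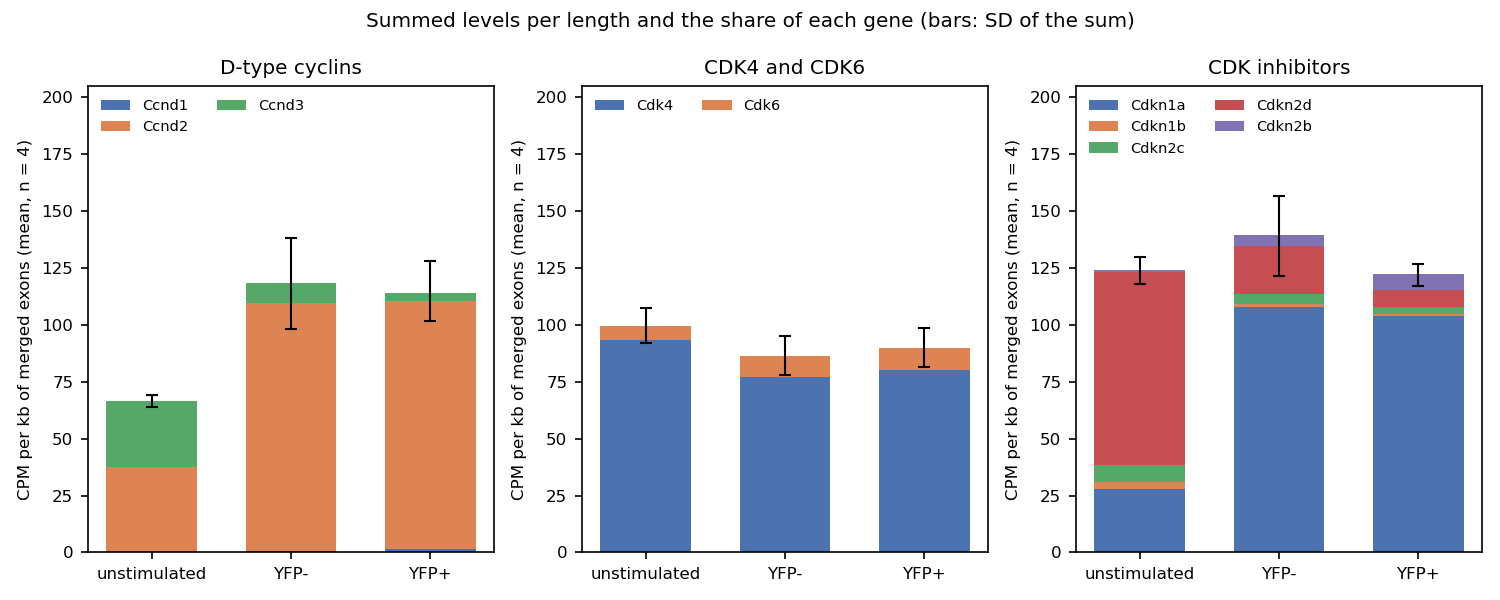
Stacked mean levels in CPM per kilobase of merged exons (y axis) of the D-type cyclins, the 2 kinases and the CDK inhibitors in each group (4 samples each); the black bars are the SD of the sum. The inhibitor sum stays between 122 and 139 while its main part passes from Cdkn2d to Cdkn1a, and Ccnd2 makes up 92% or more of the cyclin sum after stimulation.

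Across the 10 genes, the highest levels per length in unstimulated cells were those of Cdk4 (93.5 ± 6.68 CPM per kilobase) and Cdkn2d (84.8 ± 5.40), whose ranges overlapped, followed by Ccnd2 (37.4 ± 3.20), Ccnd3 (29.1 ± 0.979) and Cdkn1a (27.8 ± 4.63), the last 2 again overlapping. In YFP+ cells Ccnd2 (109 ± 12.8) and Cdkn1a (104 ± 5.28) led with overlapping ranges, ahead of Cdk4 (80.0 ± 7.99). The next were Cdk6 (10.0 ± 0.608), Cdkn2d (7.54 ± 1.07) and Ccnd3 (3.64 ± 0.519). Cdkn2c followed (3.01 ± 0.369), with a range that overlapped that of Ccnd3. Rbl2, Cdkn1b and Rb1 closed the order in YFP+ cells, at 1.17 ± 0.122, 0.698 ± 0.0667 and 0.590 ± 0.203 CPM per kilobase, the last 2 with overlapping ranges.

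Both pocket proteins were lower in YFP+ than in unstimulated cells. Rb1 (ENSMUSG00000022105, chromosome 14, 73183673 to 73325822, minus strand), the retinoblastoma protein, was at 12.5, 14.6, 14.1 and 16.7 CPM in unstimulated, 6.95, 5.27, 5.32 and 3.96 CPM in YFP- and 2.17, 3.15, 3.81 and 5.07 CPM in YFP+ samples. All unstimulated samples were higher than all stimulated ones, and the fractions overlapped because YFP- m4 was the lowest of its group and YFP+ m4 the highest of its own. Rb1 was 2.73-fold lower in YFP- (log2 difference -1.45, SE 0.24, adjusted p = 0.00026) and 4.24-fold lower in YFP+ (-2.08, SE 0.24, adjusted p = 5.8e-06) than in unstimulated cells in limma. Between YFP+ and YFP- the difference of -0.63 (SE 0.24) had an adjusted p of 0.079, and without the samples named m4 it was -0.97 with an adjusted p of 0.022, or -0.83 (0.027) without YFP+ m4 alone.

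Rbl2 (ENSMUSG00000031666, chromosome 8, 91070057 to 91123844, plus strand), which encodes p130, was at 21, 23.7, 21.3 and 29.4 CPM in unstimulated, 20.9, 20.1, 17.7 and 15.8 CPM in YFP- and 7.54, 8.90, 9.61 and 9.33 CPM in YFP+ samples. The YFP+ samples stood apart from both other groups, whereas the highest YFP- sample, at 20.9 CPM, nearly reached the lowest unstimulated one, at 21 CPM. YFP+ was 2.68-fold below unstimulated (log2 difference -1.42, SE 0.15, adjusted p = 2.5e-06) and 2.10-fold below YFP- cells (-1.07, SE 0.15, adjusted p = 0.00027) in limma. YFP- against unstimulated gave -0.35 (SE 0.15, adjusted p = 0.067), a difference that was called with quantile normalization (-0.53, adjusted p = 0.017), median centring (-0.49, 0.024), trimmed-mean scaling (-0.37, 0.043) and voom weights (-0.37, 0.038), and without ribosomal RNA-like reads (-0.53, 0.02) or the samples named f2 (-0.47, 0.045). The log2 ratio of Rb1 over Rbl2 was -0.71 ± 0.09 in unstimulated, -1.81 ± 0.19 in YFP- and -1.37 ± 0.38 in YFP+ cells (SD, n = 4), lower in YFP- than in unstimulated cells (difference -1.10, exact permutation p = 0.0286, adjusted p = 0.033). It did not pass the test between YFP+ and YFP- (0.44, exact permutation p = 0.0857, adjusted p = 0.0918). With 1 CPM added to both genes that comparison passed (0.49, adjusted p = 0.033 in the same test). YFP+ against unstimulated then no longer did (-0.47, adjusted p = 0.0612), where the deposited moderated values gave -0.66 and 0.033.

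**Figure D4:**
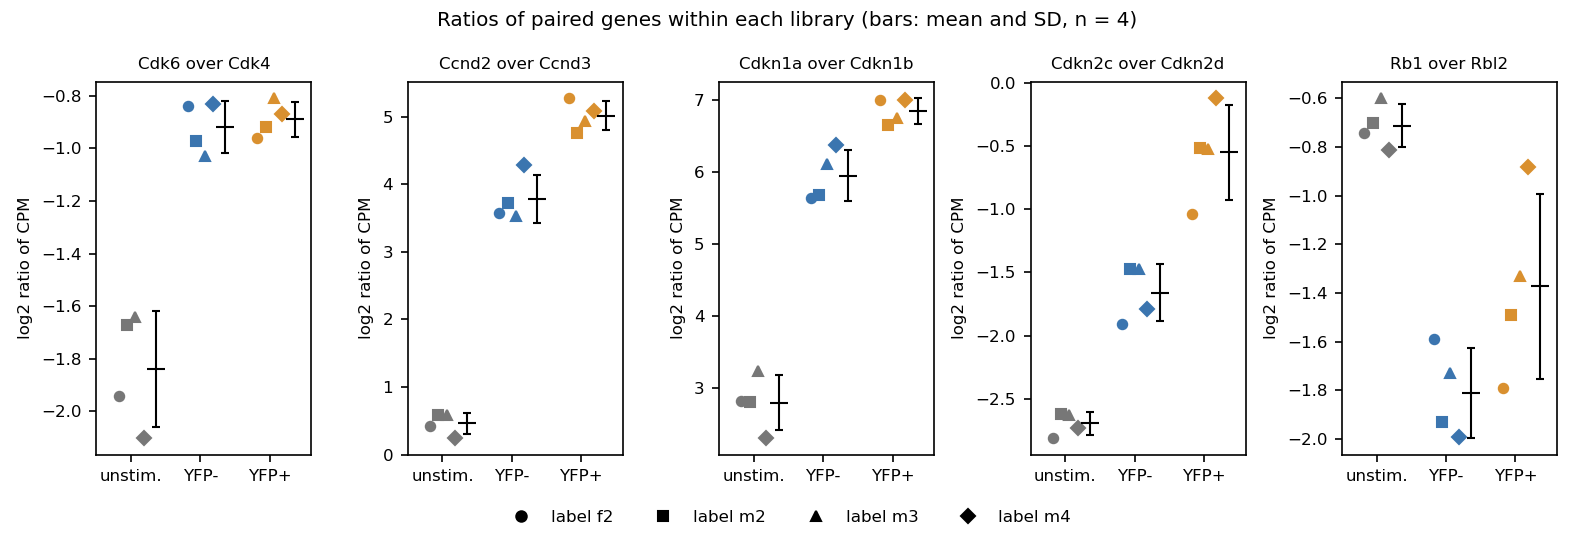
Log2 ratio of the CPM of 2 genes within each library (y axis, a scale of its own in each panel) by group; symbols mark the sample names and the black bars mean and SD (n = 4). The Ccnd2 over Ccnd3, Cdkn1a over Cdkn1b and Cdkn2c over Cdkn2d ratios form 3 separate levels, the Cdk6 over Cdk4 ratio forms 2, and Rb1 over Rbl2 has its lowest mean in YFP-.

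Some of these values may include reads that belong to a neighbour, or lack reads on shared bases, since the handling of such reads is not stated. No strand-specific counting is stated, and the exons of Rbl2 share 21% of their bases with Aktip and Gm45464 on the other strand, those of Cdk4 19.7% with Tspan31, and those of Rb1 14.9% with Rcbtb2 and Lpar6. The shared part was 7.86% for Ccnd2, 7.68% for Cdkn1a, 4.11% for Ccnd3 and 2.63% for Cdk6, and there was none for Cdkn1b, Cdkn2c and Cdkn2d. Reads from the shared bases cannot be told apart.

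Other genes of the pathway were followed in 5 lists, whose counts are to be read against the shares of all genes: in YFP+ cells 27.5% were higher and 33.3% lower than without stimulation, in YFP- cells 30.2% and 20.9%, and between the fractions 3.28% were higher and 18.5% lower in YFP+. Of 17 further G1/S partners, 15 were tested (Cdkn1c and Cdkn2a were too low, with at most 25 reads in a library). For YFP+ against unstimulated, 4 were higher, 6 lower and 5 not called, with a median log2 difference of -0.34. For YFP- the counts were 3, 4 and 8 (median 0.14), and for YFP+ against YFP- they were 0, 4 and 11 (median -0.03). With 10 of 15 called for YFP+ against 60.8% of all genes, the count is no result about the list. Ccnd1 was the partner with the largest change, with 3 to 25 reads per unstimulated library, 115 to 297 reads per YFP- library and 183 to 545 reads per YFP+ library (log2 difference 4.64 for YFP+ and 3.71 for YFP-, adjusted p = 1.1e-06 and 1.9e-05 in limma). Cdkn2b, which encodes the INK4 inhibitor p15, was at 0.446 to 0.973 CPM without stimulation, and rose to 6.13 to 7.22 CPM in YFP- and 7.82 to 12.2 CPM in YFP+ samples (log2 differences of 3.18 and 3.72, adjusted p = 2.4e-07 and 1.9e-08 in limma). So 2 of the 3 tested INK4 genes fell and 1 rose. Ccna2, the cyclin of S phase and G2, fell in YFP- and YFP+ cells (log2 differences of -1.15 and -2.86), and so did Rbl1, the pocket protein p107 (-1.14 and -2.07, adjusted p at most 0.00023 in limma). Both were lower in YFP+ than in YFP- (-1.71 and -0.93, adjusted p = 5e-05 and 0.0012).

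Among 16 E2F factors and subunits of the DREAM complex, in which p130 or p107 represses cell cycle genes in resting cells, 1 was higher, 8 lower and 7 not called for YFP+ against unstimulated (median -0.71). For YFP- the counts were 2, 7 and 7 (median -0.29), and for YFP+ against YFP- they were 0, 5 and 11 (median -0.44). The 9 of 16 called for YFP+ are likewise near the 60.8% of all genes. The 4 largest changes for YFP+ against unstimulated were falls, of the activators E2f2 (log2 difference -3.41 for YFP+ and -1.66 for YFP- against unstimulated) and E2f1 (-2.55 and -1.88) and of the atypical repressors E2f8 (-2.91 and -2.01) and E2f7 (-2.86 and -1.90), with adjusted p at most 0.00021 in limma. All 4 were lower in YFP+ than in YFP- cells (adjusted p 0.00053 to 0.046).

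The readout of 11 E2F target genes used in DNA replication and nucleotide synthesis had 8 members lower for YFP+ against unstimulated (33.3% of all genes were lower; list median -1.43), 6 lower for YFP- (20.9% of all genes; median -0.97) and 4 lower for YFP+ against YFP- (18.5% of all genes; median -0.37). None was called higher, where 27.5%, 30.2% and 3.28% of all genes were. The replication helicase subunits Mcm7, Mcm6 and Mcm4 fell in YFP+ against unstimulated cells (log2 differences of -2.19, -1.97 and -1.64), and so did Rrm2, a ribonucleotide reductase subunit (-1.94, adjusted p at most 0.00084 in limma). In YFP- against unstimulated cells, Mcm6 and Mcm4 fell (-0.87 and -1.41, adjusted p = 0.012 and 1.2e-05 in limma), while Mcm7 and Rrm2 stood at -0.75 and -0.33 (adjusted p = 0.12 and 0.51).

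Cdkn1a is a known target of the tumour suppressor p53, and 14 other p53 targets were listed for comparison. Of the 12 tested (Eda2r and Pmaip1 were too low), 4 were higher, 4 lower and 4 not called for YFP+ against unstimulated (median 0.26), and 8 were higher and 1 lower for YFP- (median 0.68). For YFP+ against YFP- none was higher and 5 were lower (median -0.32). For YFP+ the 8 of 12 called are near the 60.8% of all genes, and for YFP- the 8 higher stand beside 30.2% of all genes. Plk2, a polo-like kinase, rose by 4.28 on the log2 scale in YFP+ and 4.02 in YFP- cells, Aen, a nuclease, by 2.41 and 2.42, and the stress sensor Sesn2 by 2.06 and 1.82 (adjusted p at most 5.9e-06 in limma). Trp53inp1 fell in YFP+ and YFP- cells (-3.61 and -0.98, adjusted p = 3e-08 and 0.0033). The list did not move as one in YFP+ cells.

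Of 8 regulators known to act on genes of this group, 4 were higher, 3 lower and 1 not called for YFP+ (median 0.31), 5 were higher and 2 lower for YFP- (median 0.57), and none was higher and 3 were lower for YFP+ against YFP- (median -0.67), beside 60.8%, 51.1% and 21.8% of all genes called in either direction. Stat5a, which transmits IL-15 signals, rose by 3.27 on the log2 scale in YFP+ and by 3.02 in YFP- cells (adjusted p = 3e-09 and 2.2e-08 in limma). Myc, whose protein binds the E-box letters seen in windows of Cdk4, Cdk6 and Cdkn2c, rose by 1.51 and 2.28 (adjusted p = 0.0012 and 7.4e-05 in limma). In the same comparisons Cdk4 stood at -0.23 and -0.28, Cdk6 at 0.72 and 0.64 and Cdkn2c at -1.35 and -0.97. A link between Myc and any of these 3 genes in these cells was not tested. Klf2 fell in YFP+ and YFP- cells (log2 difference -2.63 and -1.24), as did Foxo3 (-2.43 and -1.61, adjusted p at most 0.00015). Both were lower again in YFP+ than in YFP- cells (-1.39 and -0.82, adjusted p = 0.00025 and 0.0025 in limma).

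**Figure D5:**
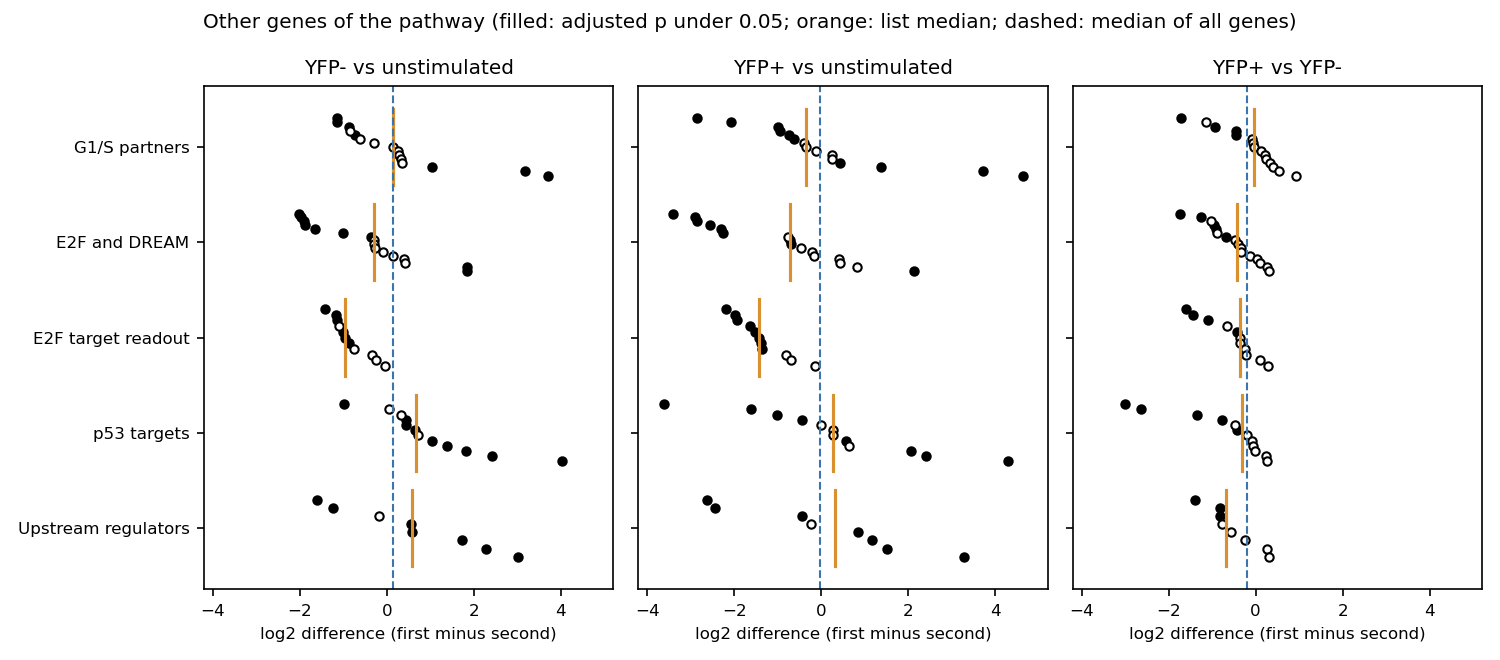
Log2 differences (x axis, first group minus second) of the genes of 5 pathway lists in 3 comparisons; filled points have an adjusted p under 0.05 in limma, orange bars are list medians and the dashed line is the median of all genes tested. The E2F target readout lies mostly left of 0, with medians of -0.97, -1.43 and -0.37, and the p53 targets spread to both sides.

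The gene of the 10 that rose the most, Cdkn1a, and the one that fell the most, Cdkn2d, were each set against 8121 genes by the root mean square difference of their log2 CPM, centred on the mean of the 12 samples. Closest to Cdkn1a were Polr1b (0.14) and Polr1e (0.17), subunits of RNA polymerase I, and Srgn (0.16), the proteoglycan of secretory granules. Among the other 9, Ccnd2 was nearest to Cdkn1a (0.22). Closest to Cdkn2d were Bnip3l (0.15), a mitophagy receptor, Selplg (0.16), the selectin ligand PSGL-1, and Tle5 (0.18), a corepressor, and Ccnd3 was the nearest of the other 9 (0.24). These distances rest on 12 samples in 3 groups and describe the likeness of pattern.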

How the data were processed

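Libraries were built from 10 ng of RNA with the SMARTer Ultra Low kit and sequenced as paired ends of 150 bases, per the labels' protocols. The submitters' processing notes name bcl2fastq, STAR 2.7.9a, Subread, featureCounts 2.0.3 and GRCm38, without their roles. The authors deposited moderated log2 CPM for 12 samples, per the file headers. After 287 repeated lines were dropped, 55487 features remained, and whole reads followed from 100% of the values (tolerance 0.01 reads).

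Gene positions and merged exon lengths came from a match to the GENCODE annotation of GRCm38 (55141 features). Genes were kept where at least 4 samples had a log2 CPM above 0, and were fitted in limma 3.58.1 (R 4.3.3) with 1 term per group over all 12 samples, and p-values were Benjamini-Hochberg adjusted over all 12364 genes. The script was tested on simulated data. Ratios of gene pairs were tested by exact permutation. Depth limits the lowest genes, and the 3-read floor covers counting error only.

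The genes, lists and tests were chosen with earlier results of these data known. From each further list, up to 4 called genes with the largest log2 difference for YFP+ against unstimulated are named, with those not tested, and for the genes that rose and fell the most, the 3 nearest genes whose mean log2 CPM reached 2 and whose symbol is not a predicted gene, clone or pseudogene. 1 gene of the E2F target list is not reported here. The alternatives tried were a replicate block, other filters, a 1 CPM pseudocount, other scalings, voom weights, removal of 363 ribosomal RNA-like features, a fit of the 8 samples compared, and samples left out by name or, chosen after seeing the data, singly.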

Additional observations from a re-analysis of the deposited data

How the results depend on the processing

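Under 26 alternatives (12 of them, the single libraries left out, chosen after seeing the data), the 30 differences of the 10 genes gave 780 values: 740 kept direction and call, 14 lost the call, 13 gained one and 13 changed sign. The sign changes all concerned uncalled differences between YFP+ and YFP-. With samples left out, these ran from -0.11 to 0.11 for Ccnd2, -0.01 to 0.12 for Cdk4, -0.02 to 0.15 for Cdk6, -0.16 to 0.02 for Cdkn1a and -0.03 to 0.07 for the Cdk6 over Cdk4 ratio. Cdkn1a gave 0.21 with median centring, 0.11 with trimmed-mean scaling and 0.10 with voom weights. Called genes among the 10 ranged over samples left out from 9 to 10 for YFP+ against unstimulated, 8 to 9 for YFP- against unstimulated and 3 to 5 for YFP+ against YFP-.

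Over all genes, 2691 were called for YFP+ against YFP-, and 1571 without the samples named m2 and 1643 without those named m4. The calls split into 405 higher and 2286 lower as deposited, 1016 and 1675 with trimmed-mean scaling, 1144 and 1627 with voom weights, 1163 and 1430 with quantile normalization and 1505 and 1491 with median centring. For YFP- against unstimulated it was 3735 and 2586 as deposited and 3073 and 3444 without ribosomal RNA-like reads. The median of all genes for YFP+ against YFP- moved from -0.19 to 0.07 with median centring, and for YFP+ against unstimulated from -0.03 to -0.21 without ribosomal RNA-like reads.

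The shared sample names were not taken to pair the samples, since it is not stated that same-named samples came from the same mouse. In no comparison were all 4 same-name correlations over 0.1, although 3 of 4 were for YFP+ against YFP-. Correlations between differently named samples are not given for comparison, so these values do not decide whether the samples are paired. Same-name correlations of deviations ran from -0.0421 to 0.375, -0.0587 to 0.1 and 0.0539 to 0.374 in the comparisons of YFP+ and YFP- with unstimulated and with each other. With a replicate block, 9, 9 and 4 of the 10 genes were called, and 7774, 6682 and 3098 of all genes. Ratio tests with 4 pairs or with 3 against 3 samples cannot go below p = 0.125 or p = 0.1 (exact), so they say nothing about stability.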
